A study of Mus musculus with 6 samples.

Results

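The genes described here are the surfactant and alveolar type 2 genes Sftpa1, Sftpb, Sftpc, Sftpd, Abca3, Lamp3, Napsa, Slc34a2, Lpcat1 and Etv5. They were taken by gene symbol as known genes of the surfactant system, with no threshold on their values, although earlier results of these data were known when they were chosen. All 10 were among the 49568 gene symbols of the count table, and all 10 were among the 19199 genes with enough counts to be tested. The data are bulk RNA-sequencing of whole lung from female mice aged 4 months, 3 of them TNF+ and 3 TNF-, with 1 library for each mouse. TNF+ mice (TNF-Tg in the labels) carry a human TNF gene as a transgene and develop arthritis and pulmonary hypertension, and TNF- mice (WT in the labels) are their wildtype littermates. Both genotypes are on the C57BL/6 background, no mouse was given a treatment according to the labels, and the cell types that express the transgene are not given in the sources used here. The comparison asks how transcripts known from the surfactant-producing cells differed between whole lungs with and without the transgene.

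Alveolar type 2 cells are cuboidal epithelial cells of the alveolus that make surfactant, the film of phospholipid and protein that keeps alveoli from collapsing at low volume. They assemble its lipids with the small hydrophobic proteins SP-B and SP-C in lamellar bodies, lysosome-related organelles that are secreted at the cell surface. The larger collectins SP-A and SP-D are also secreted and bind carbohydrates on microbes. Type 2 cells are the progenitors of the flat type 1 cells that line most of the alveolar surface.

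Total counts per lung ranged from 25396923 to 32529408, and those of the TNF+ lungs all lay below those of the TNF- lungs. The counts of the 10 genes ranged from 2379 to 536883 per lung, so that counting error was at most 2.05%, against a coefficient of variation between mice of 5.06% to 18.5%. Replicates differed by more than sampling noise (chi-square per degree of freedom 53.7 to 140 over the 6 pairs within a genotype). A pair of libraries stood apart. In TNF+ replicate 1, 5.22% of the counts fell on the single gene Gm42418, against at most 0.274% in the other lungs. TNF- replicate 1 held 56570 counts of Krt4 and 45433 of Krt13, keratins of squamous epithelium, against at most 8 of either in any other lung. Of 8 squamous and muscle markers, 4 had enough counts to be tested and 2 of these, Krt5 and Ckm, were lower in TNF+ lungs, a count that moved between 0 and 4 as single lungs were left out and was 0 by DESeq2. The tests of the 10 genes, the counts of each list and the ratios to Sftpb were also computed without both libraries, while the levels relative to the pan-epithelial genes were not.

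Together the 10 genes took 1.92%, 1.74% and 1.85% of all counts in the 3 TNF+ lungs, against 2.37%, 2.75% and 2.61% in the 3 TNF- lungs, so the groups did not overlap. Sftpc alone made up 54.7% to 60.8% of these counts in any lung. By edgeR's quasi-likelihood test at an adjusted p-value under 0.05, 4 of the 10 genes were lower in TNF+ lungs (Sftpb, Abca3, Lpcat1 and Etv5), where 23.4% of all tested genes were lower. None of the 10 was higher (0 genes, also 0 at an unadjusted p under 0.05, 0 by DESeq2 and 0 by limma-voom), where 24.0% of all tested genes were higher. The 6 others did not pass the test. Every TNF+ lung lay below every TNF- lung for 6 of the 10 genes, against 28.2% of all tested genes, and all TNF+ lungs lay above for 0 of 10, against 30.5%. The median log2 fold change of the 10 genes was -0.33, against 0.03 over all tested genes. None of the 10 genes had a called log2 fold change of 1 or more in size (0 of the 4 calls). The calls of Sftpb and Abca3 held in all 14 alternative fits at the same cutoff. The count of 4 fell to 2, these same genes, without TNF+ replicate 2, without TNF- replicate 1, without TNF- replicate 2, and without replicate 1 of both genotypes, and DESeq2 called 6. In whole lung, fewer type 2 cells, less of a transcript in each cell and more or fewer cells of other types cannot be told apart.

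**Figure D1:**
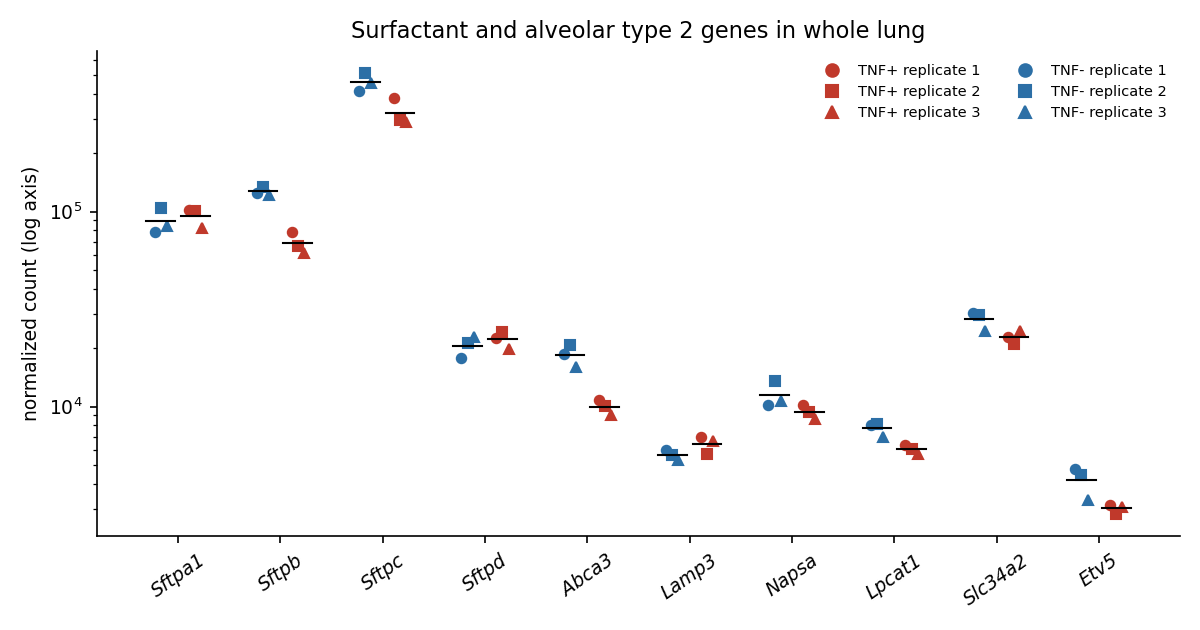
Normalized counts (counts scaled to a common library size, log axis) of the 10 genes in each of the 3 TNF- lungs (blue) and 3 TNF+ lungs (red), with the marker shape for the replicate number and a black line at the group mean. Sftpb and Abca3 show the widest gaps between the groups, while the groups of Sftpa1, Sftpd, Lamp3 and Slc34a2 overlap.

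Of the 4 surfactant protein genes, 1 fell, Sftpb, and 3 did not pass the test, a share near the 23.4% of all tested genes that were lower. SP-B is required for lamellar bodies and for the surface film, and its gene Sftpb (ENSMUSG00000056370.15, chromosome 6 of GRCm38, 72304610 to 72314371, plus strand) had 78847, 66316 and 60985 normalized counts in the TNF+ lungs, against 124863, 134239 and 121441 in the TNF- lungs. The lowest TNF- lung was far above the highest TNF+ lung. The mean was 68716 ± 9170 (SD, n = 3) against 126848 ± 6626 (SD, n = 3), and the log2 fold change was -0.88 (standard error 0.17, 95% interval -1.27 to -0.50, edgeR adjusted p = 0.00314), which is 54.2% of the TNF- level. Without replicate 1 of both genotypes it was -1.05 (adjusted p = 0.0215).

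SP-C, an integral membrane peptide made only as a proprotein that is trimmed on its way to the lamellar body, is encoded by Sftpc (ENSMUSG00000022097.4, chromosome 14, 70520949 to 70524081, minus strand), the most abundant of the 10 transcripts. It had 381162, 295940 and 287103 normalized counts in TNF+ lungs, against 413594, 514546 and 458093 in TNF- lungs. The groups did not overlap, but TNF+ replicate 1 lay close to TNF- replicate 1. The log2 fold change of -0.52 (standard error 0.22, 95% interval -1.03 to -0.02) did not pass the edgeR test (adjusted p = 0.0837). The call depended on the tool, since Sftpc passed with DESeq2 (adjusted p = 0.000524), with limma-voom (adjusted p = 0.0304) and with edgeR scaled to total counts only (adjusted p = 0.0182), in a range over all alternatives of 0.000524 to 0.245. Without replicate 1 of both genotypes the log2 fold change was -0.78 (adjusted p = 0.162).

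Neither collectin gene passed the test. Sftpa1 (ENSMUSG00000021789.14, chromosome 14, 41131782 to 41136452, plus strand), which encodes SP-A, had 101548, 100123 and 82096 normalized counts in TNF+ lungs, against 78431, 104533 and 84335 in TNF- lungs, and the groups overlapped. Its log2 fold change was 0.09 (standard error 0.18, 95% interval -0.33 to 0.50, edgeR adjusted p = 0.718). The sign was negative without TNF+ replicate 1, without TNF- replicate 1 and without both. Sftpd (ENSMUSG00000021795.10, chromosome 14, 41172214 to 41185149, minus strand), which encodes SP-D, had 22596, 24071 and 19698 normalized counts in TNF+ lungs, against 17650, 21190 and 22811 in TNF- lungs. Its groups also overlapped, and the log2 fold change was 0.11 (standard error 0.14, 95% interval -0.22 to 0.44, edgeR adjusted p = 0.570), which was negative without TNF- replicate 1 and without replicate 1 of both genotypes. The lower bounds of these intervals, -0.33 for Sftpa1 and -0.22 for Sftpd, lay above the upper bound of -0.50 for Sftpb.

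**Figure D2:**
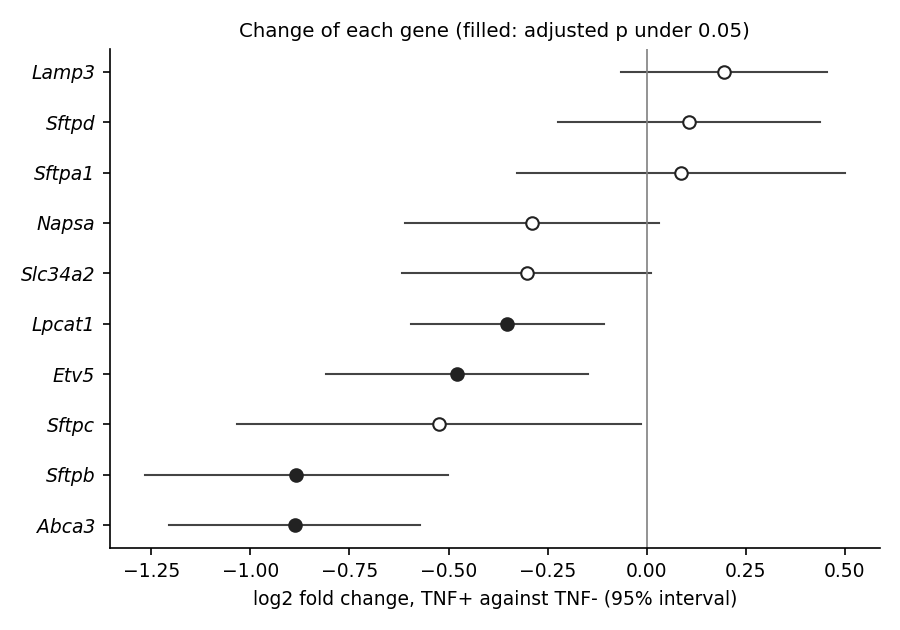
Log2 fold change of each of the 10 genes in TNF+ against TNF- lungs (points) with its 95% interval (lines), ordered by size, filled where the edgeR adjusted p was under 0.05. The estimates run from -0.89 for Abca3 to 0.19 for Lamp3.

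Ratios of 2 genes within a lung do not depend on the scaling of libraries, and 4 such ratios were compared. The ratio of Sftpa1 to Sftpb counts was 1.29, 1.51 and 1.35 in the TNF+ lungs, against 0.628, 0.779 and 0.694 in the TNF- lungs, 1.98-fold higher in TNF+ lungs. Sftpa1 thus had fewer counts than Sftpb in each TNF- lung and more in each TNF+ lung. The ratio of Sftpd to Sftpb was 0.287, 0.363 and 0.323 against 0.141, 0.158 and 0.188, 2.00-fold higher. That of Sftpc to Sftpb was 4.83, 4.46 and 4.71 against 3.31, 3.83 and 3.77, 1.28-fold higher. For these 3 ratios the TNF+ lungs were all above the TNF- lungs (exact two-sided permutation test, p = 0.1 for each, the smallest that 3 mice against 3 allow, and 0.133 after adjustment over the 4 ratios). Sftpb itself had a log2 fold change of -0.88, against a median of 0.03 over all tested genes. A gene that did not change would therefore also be higher relative to Sftpb. The share of all tested genes that lay apart on this scale was not computed. The ratio of Abca3 to Sftpb was 0.137, 0.153 and 0.148 against 0.150, 0.155 and 0.131, a log2 difference of 0.01 with overlapping groups (exact permutation test, p = 1, adjusted p = 1). Without replicate 1 of both genotypes the log2 differences were 0.96 for Sftpa1, 0.99 for Sftpd, 0.27 for Sftpc and 0.08 for Abca3.

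**Figure D3:**
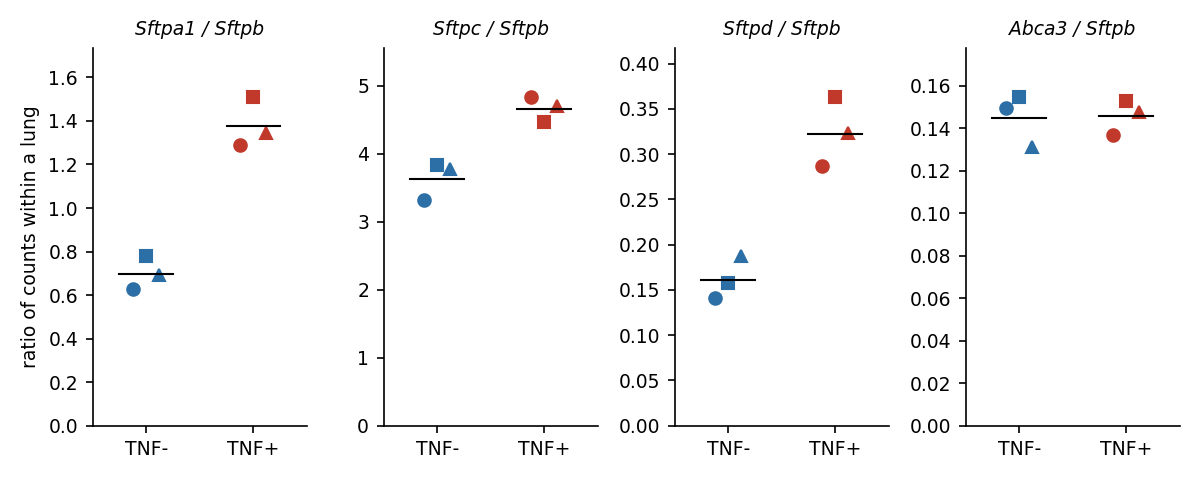
Ratio of the counts of Sftpa1, Sftpc, Sftpd and Abca3 to those of Sftpb within each lung, on linear axes from 0, with TNF- lungs in blue, TNF+ lungs in red, the marker shape for the replicate number and a line at the geometric mean. The first 3 ratios are higher in all TNF+ lungs, and the ratio of Abca3 to Sftpb lies between 0.131 and 0.155 in all 6 lungs.

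The bases before the gene start are shown for the pair that fell most, Sftpb and Abca3, and for Sftpa1, which did not pass the test. They are the 250 bases upstream of the RefSeq gene start on GRCm38.p6, in the direction of the gene, at chr6:72304360-72304609 (plus strand), chr17:24351773-24352022 (plus strand) and chr14:41131538-41131787 (plus strand). Capitals mark CTCAAG or its reverse complement, letters that hold the CAAG core bound by the homeodomain factor NKX2-1, a known activator of surfactant genes.
Sftpb: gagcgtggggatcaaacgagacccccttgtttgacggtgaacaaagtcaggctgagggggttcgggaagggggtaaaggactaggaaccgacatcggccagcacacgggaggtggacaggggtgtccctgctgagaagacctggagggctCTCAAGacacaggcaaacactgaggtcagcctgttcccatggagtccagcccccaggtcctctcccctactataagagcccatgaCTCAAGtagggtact
Abca3: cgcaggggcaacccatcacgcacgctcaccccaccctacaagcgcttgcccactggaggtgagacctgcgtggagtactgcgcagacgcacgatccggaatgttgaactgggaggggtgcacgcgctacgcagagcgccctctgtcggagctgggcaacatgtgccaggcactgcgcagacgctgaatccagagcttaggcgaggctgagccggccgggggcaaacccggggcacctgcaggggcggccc
Sftpa1: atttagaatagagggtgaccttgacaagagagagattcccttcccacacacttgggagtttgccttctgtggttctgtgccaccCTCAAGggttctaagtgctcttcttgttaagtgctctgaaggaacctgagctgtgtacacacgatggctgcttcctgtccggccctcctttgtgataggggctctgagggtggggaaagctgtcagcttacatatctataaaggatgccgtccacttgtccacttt
Of the 10 genes, 7 had a window in the RefSeq table. CTCAAG stood in 2 of the 7, with 2 matches in Sftpb (starting 100 and 15 bases before the gene start) and 1 in Sftpa1 (166 bases before it), against 13.3% of all 32851 windows. Abca3 held none. Other letters searched on both strands were TGTTTNC of FOXA factors (Sftpb, Lamp3 and Etv5, 17.8% of all windows), GGAAGT of ETS factors (Etv5, 19.7%), TTNNGCAA of C/EBP factors (Slc34a2, 9.56%) and TTCNNNGAA of STAT factors (Lamp3, 7.02%). These are matches of letters in these windows and not measured binding sites. The letters were chosen after the sequences were seen, so the shares of all windows do not test these genes. The 7 are genes, and Etv5 has 2 windows, while the shares count windows.

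Among the genes of the lamellar body and of lipid handling, Abca3 fell most. ABCA3 is the transporter that pumps phospholipid into the lamellar body, and its gene (ENSMUSG00000024130.16, chromosome 17, 24351950 to 24410201, plus strand) had 10790, 10118 and 8998 normalized counts in TNF+ lungs, against 18673, 20758 and 15925 in TNF- lungs. The groups were well apart, with means of 9969 ± 905 (SD, n = 3) and 18452 ± 2424 (SD, n = 3) and a log2 fold change of -0.89 (standard error 0.14, 95% interval -1.21 to -0.57, edgeR adjusted p = 0.00124), or 54.0% of the TNF- level. Without replicate 1 of both genotypes it was -0.98 (adjusted p = 0.00834). Lpcat1 (ENSMUSG00000021608.15, chromosome 13, 73467197 to 73516422, plus strand) encodes the acyltransferase that remodels lysophosphatidylcholine into the saturated phosphatidylcholine of surfactant. It had 6332, 6085 and 5723 normalized counts in TNF+ lungs, against 8003, 8145 and 7007 in TNF- lungs, with no overlap. Its log2 fold change was -0.35 (standard error 0.11, 95% interval -0.60 to -0.11, edgeR adjusted p = 0.0256). The call was lost in 6 of 14 alternatives, among them those without TNF+ replicate 2 or 3, without TNF- replicate 1 or 2, and without replicate 1 of both genotypes (adjusted p 0.00187 to 0.103 over all alternatives).

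The remaining genes of this group did not pass the test. Slc34a2 (ENSMUSG00000029188.14, chromosome 5, 53038081 to 53071664, plus strand) encodes the sodium phosphate cotransporter of the type 2 cell surface. It had 22776, 20894 and 24412 normalized counts in TNF+ lungs, against 30237, 29344 and 24402 in TNF- lungs, where TNF- replicate 3 lay among the TNF+ values. Its log2 fold change was -0.30 (standard error 0.14, 95% interval -0.62 to 0.01, edgeR adjusted p = 0.101). It passed with DESeq2 (adjusted p = 0.0185) and without TNF- replicate 3 (adjusted p = 0.0425), in a range over the alternatives of 0.0185 to 0.354, the last without replicate 1 of both genotypes. Napsa (ENSMUSG00000002204.9, chromosome 7, 44572380 to 44586862, plus strand) encodes napsin A, an aspartic protease that takes part in the processing of SP-B. It had 10166, 9359 and 8610 normalized counts in TNF+ lungs, against 10190, 13537 and 10653 in TNF- lungs, groups that did not overlap but nearly touched. Its log2 fold change was -0.29 (standard error 0.14, 95% interval -0.61 to 0.03, edgeR adjusted p = 0.122).

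Lamp3 (ENSMUSG00000041247.8, chromosome 16, 19653378 to 19706375, minus strand) encodes a membrane protein of the lamellar body. In humans this protein is also found in mature dendritic cells, where it is called DC-LAMP. Lamp3 had 7019, 5697 and 6628 normalized counts in TNF+ lungs, against 5964, 5612 and 5324 in TNF- lungs, and the groups overlapped. The log2 fold change was 0.19 (standard error 0.11, 95% interval -0.06 to 0.45, edgeR adjusted p = 0.189). Of 7 mature dendritic cell markers 6 were tested, of which Fscn1 and Cd83 rose and Ccr7 and Ccl22 fell, and Il12b, which was not tested, had at most 30 counts in any lung. Over all tested genes 24.0% were higher and 23.4% lower. The summed normalized counts of this list were 7476 to 8217 in TNF+ lungs and 3064 to 3840 in TNF- lungs. Fscn1 alone carried this gap, since the other 6 genes summed to 2417 to 2711 in TNF+ lungs and 2249 to 2985 in TNF- lungs, which overlap. The count of lower markers was 1 without TNF+ replicate 2 or 3 or TNF- replicate 2 or 3, and 3 without TNF- replicate 1 or without replicate 1 of both genotypes. The part of dendritic cells in the Lamp3 value was not tested.

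Etv5 (ENSMUSG00000013089.15, chromosome 16, 22381309 to 22439719, minus strand) encodes an ETS transcription factor that is induced by fibroblast growth factor (FGF) signalling and that maintains type 2 cell identity. It had 3137, 2805 and 3065 normalized counts in TNF+ lungs, against 4801, 4440 and 3315 in TNF- lungs. The groups did not overlap, although TNF- replicate 3 lay near the TNF+ lungs. The log2 fold change was -0.48 (standard error 0.14, 95% interval -0.81 to -0.15, edgeR adjusted p = 0.0251), and the call was lost without TNF+ replicate 2, without TNF- replicate 1 or 2, and without replicate 1 of both genotypes (adjusted p 0.00214 to 0.0990 over all alternatives). In the reference transcripts, 15.2% of the 100-base windows of Etv5 also occur in the locus Gm4798, which has no row of that name in the count table. For Abca3 the share was 0.155%, with Abca17, and for each of the other 8 genes it was 0%. On the opposite strand, Abca3 overlaps D330041H03Rik (69 to 141 counts per lung), Slc34a2 overlaps Gm17182 (19 to 46) and Napsa overlaps Gm15396 (0 to 2), and whether the counting used the strand is not given in the sources used here.

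Per kilobase of exon, the order of levels in TNF- lungs was Sftpc, Sftpb, Sftpa1, Sftpd, Slc34a2, Napsa, Abca3, Lamp3, Lpcat1 and Etv5. The mean level of Sftpc was 14757 CPM (library-scaled counts) per kilobase in TNF- lungs and 10265 in TNF+ lungs, and that of Etv5 was 33.7 and 24.2. In TNF- lungs the ranges of neighbours overlapped for Slc34a2 with Napsa, for Abca3 with Lamp3 and for Lamp3 with Lpcat1. Sftpb stood above Sftpa1 in TNF- lungs, at 2038 to 2253 against 906 to 1207 CPM per kilobase. In TNF+ lungs the ranges of these genes overlapped, at 1023 to 1323 for Sftpb and 948 to 1173 for Sftpa1. Abca3 ranked 7 of the 10 in TNF- lungs and 9 of the 10 in TNF+ lungs.

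The 10 genes were also set against genes shared by all epithelial cells in the same lung. All 10 pan-epithelial genes fell in TNF+ lungs, from Epcam (log2 fold change -0.43, edgeR adjusted p = 0.0128) to Krt7 (-1.60, adjusted p = 3.61e-05), with a median of -1.04, where 23.4% of all tested genes were lower, and all 10 also fell without replicate 1 of both genotypes. Cdh1, the E-cadherin of epithelial junctions, had 3456, 2982 and 3143 normalized counts in TNF+ lungs, against 9825, 9102 and 8407 in TNF- lungs. The mean log2 CPM of the 10 pan-epithelial genes was 4.94, 4.88 and 4.65 in TNF+ lungs and 5.94, 5.86 and 5.99 in TNF- lungs, and TNF- replicate 1, with its squamous keratins, lay between the other TNF- lungs. Relative to this mean, Sftpa1 was 1.20 higher in TNF+ lungs on the log2 scale, Sftpd 1.22, Lamp3 1.30, Napsa 0.82, Slc34a2 0.81, Lpcat1 0.76, Etv5 0.64 and Sftpc 0.58, and for these 8 genes the lowest TNF+ lung exceeded the highest TNF- lung. Sftpb (0.21) and Abca3 (0.22) had overlapping groups on this scale. Most genes of the lung behaved like the 8, since 78.4% of all tested genes lay above in every TNF+ lung when set against the pan-epithelial mean. These values are a description and were not tested.

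**Figure D4:**
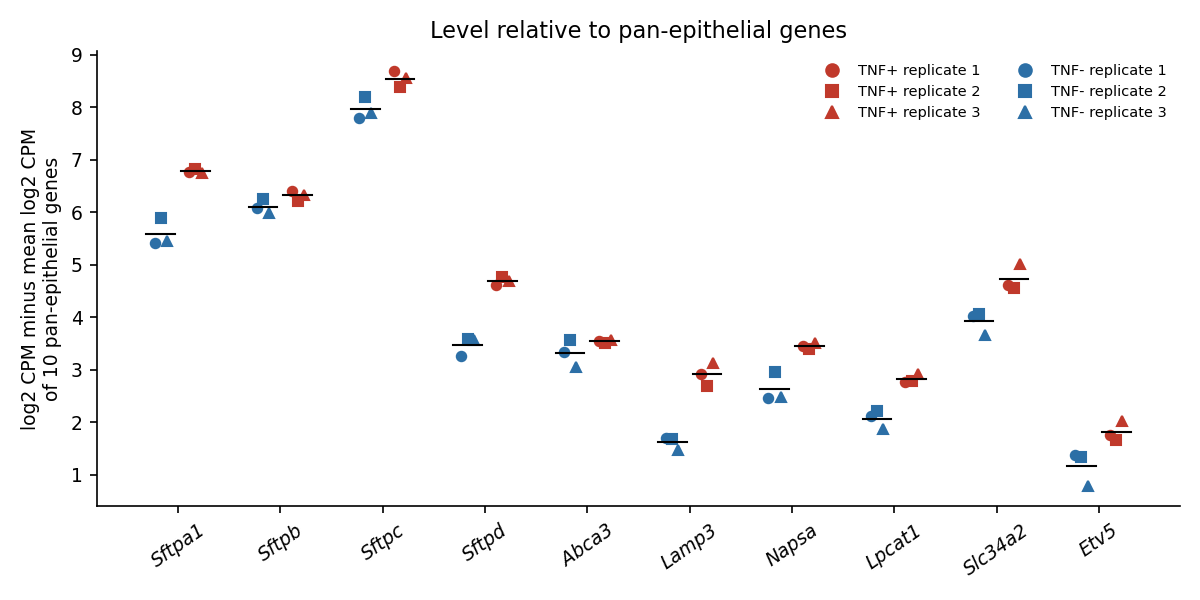
Log2 CPM of each of the 10 genes minus the mean log2 CPM of 10 pan-epithelial genes in the same lung, with TNF- lungs in blue, TNF+ lungs in red, the marker shape for the replicate number and a line at the group mean. The groups overlap for Sftpb and Abca3 and lie apart, with TNF+ higher, for the other 8 genes.

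The median changes of the other lung epithelial markers were below that of the 10 genes (-0.33), and this difference was not tested. The counts of this and the following lists stand against 24.0% of all tested genes higher and 23.4% lower. All 10 type 1 cell markers were lower in TNF+ lungs, with a median log2 fold change of -1.62, among them Ager (-1.40, edgeR adjusted p = 0.000205), the receptor RAGE, and Aqp5 (-1.88, adjusted p = 1.18e-05), a water channel. All 8 airway markers were lower, with a median of -1.97, among them the club cell genes Scgb1a1 (-1.77, adjusted p = 0.00220) and Cyp2f2 (-2.17, adjusted p = 8.86e-05). Both counts were the same without replicate 1 of both genotypes, but the airway count was 7 by DESeq2, by limma-voom and in 4 of the 6 fits that left out a single lung. The groups of the airway gene Scgb3a1 (-1.18, adjusted p = 0.0405) overlapped. Of 10 genes that mark the transitional state between type 2 and type 1 cells, 6 were lower, among them Krt8 (-1.37, adjusted p = 0.000186; 4 were lower without replicate 1 of both genotypes), and 2 were higher, Lgals3 (2.38, adjusted p = 7.3e-05) and Lcn2 (1.43, adjusted p = 0.00450), which are also genes of macrophages and neutrophils.

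Of 14 other type 2 cell markers, 6 fell and 2 rose, with a median log2 fold change of -0.55 (7 and 2 without replicate 1 of both genotypes). Cxcl15 (lungkine), an epithelial chemokine, had 9135, 7026 and 6658 normalized counts in TNF+ lungs, against 19663, 25508 and 15469 in TNF- lungs (-1.41 on the log2 scale, with a standard error of 0.21, edgeR adjusted p = 0.000939). Acoxl, an acyl-CoA oxidase homologue, had the largest fall of the list, from 1330, 1553 and 1149 in TNF- lungs to 252, 115 and 124 in TNF+ lungs (-3.05 on the log2 scale, with a standard error of 0.30, adjusted p = 0.000124). Lgi3 (-0.97), Hc (-0.74), Muc1 (-0.73) and Egfl6 (-0.54) also fell. The genes that rose were Lyz1 (2.35, adjusted p = 9.31e-06), a lysozyme, and Ctsh (0.75, adjusted p = 0.00114), a cathepsin that takes part in the processing of SP-B and SP-C, and both are also made by macrophages. Chil1, Sfta2, Mlc1, S100g, Dlk1 and Scd1 did not pass the test. Beside them, 5 of 6 leukocyte markers rose, with summed normalized counts of 38701 to 47416 in TNF+ and 7467 to 8976 in TNF- lungs, and 3 of 5 B cell markers rose (6895 to 7503 against 3224 to 5806, and 1 of 5 without replicate 1 of both genotypes). The part of leukocytes in Lyz1 and Ctsh was not tested.

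**Figure D5:**
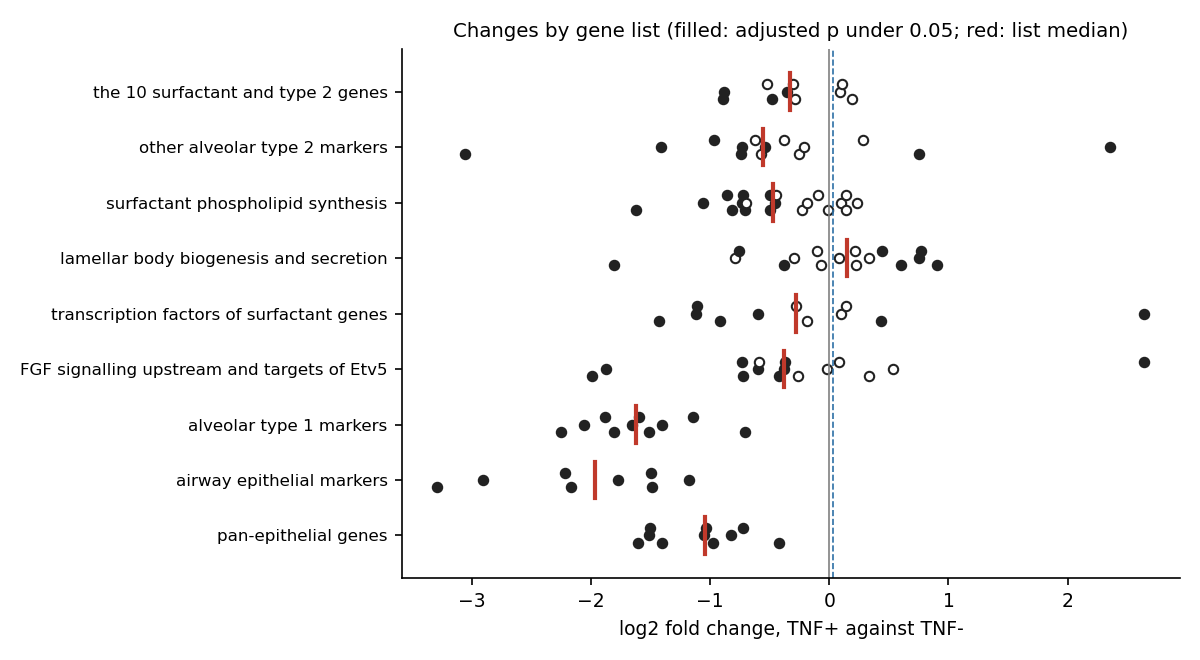
Log2 fold change of each tested gene by list (points, filled where the edgeR adjusted p was under 0.05), with the list median in red, a solid line at 0 and a dashed line at the median of all tested genes, 0.03. The medians of the type 1 (-1.62), airway (-1.97) and pan-epithelial (-1.04) lists lie left of that of the 10 surfactant and type 2 genes (-0.33).

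Of 20 genes of phospholipid and fatty acid synthesis, which supply the lipid of surfactant but act in every cell, 10 fell and 0 rose, with a median log2 fold change of -0.48 (0 also rose at an unadjusted p under 0.05 by edgeR, 0 by DESeq2 and 0 by limma-voom, and 9 fell without replicate 1 of both genotypes). Fasn, the fatty acid synthase, had 12183, 12571 and 13713 normalized counts in TNF+ lungs, against 25781, 25321 and 29181 in TNF- lungs (-1.06 on the log2 scale, with a standard error of 0.12, edgeR adjusted p = 0.000264). The choline pathway genes Chka (-0.71), Pcyt1b (-1.62) and Chpt1 (-0.50) fell, while Pcyt1a, the main gene of the CTP-dependent step of that pathway, did not pass the test (-0.23, adjusted p = 0.111). Of 16 genes of lamellar body biogenesis and secretion, 5 rose (Hps1, Lyst, Ctsh, P2ry2 and Stxbp2) and 3 fell (Rab27a, Atp11a and Adgrf5), with a median of 0.15, and both counts were 3 without replicate 1 of both genotypes. These counts lie near the shares of all tested genes, 24.0% higher and 23.4% lower. Adgrf5, a receptor that restrains the surfactant pool and is also an endothelial gene, fell by 1.81 on the log2 scale (adjusted p = 0.000117).

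Among 11 transcription factors that act on surfactant genes, 5 fell and 2 rose. Nkx2-1 had 2074, 1761 and 1974 normalized counts in TNF+ lungs, against 3667, 3444 and 3875 in TNF- lungs, with no overlap (log2 fold change -0.92, standard error 0.10, edgeR adjusted p = 0.000211). Foxa1 (-1.12), Foxa2 (-1.11), Klf5 (-1.42) and Tfcp2l1 (-0.59) also fell. Cebpa rose (0.43, adjusted p = 0.0126), a call lost without TNF+ replicate 1 or TNF- replicate 1. Etv4, an ETS factor close to Etv5, rose from 20.1, 25.9 and 21.3 normalized counts in TNF- lungs to 111, 138 and 173 in TNF+ lungs (2.64 on the log2 scale, with a standard error of 0.25, adjusted p = 0.000111), while Etv5 fell. Of 15 genes of the FGF pathway upstream of Etv5 or induced with it, 8 fell and 1, Etv4, rose. Fgf10, a ligand from lung fibroblasts, fell from 508, 449 and 363 to 134, 100 and 99.1 normalized counts (log2 fold change -1.99, standard error 0.19, adjusted p = 0.000117), and its receptor gene Fgfr2 fell by 0.38 on the log2 scale (adjusted p = 0.0109). Of the feedback inhibitors, Spred2 fell (-0.42, adjusted p = 0.0334), while Dusp6, Spry1, Spry2, Spry4 and Spred1 did not pass the test. The count of 8 depended on single lungs and was 4 without TNF+ replicate 2, 5 without TNF+ replicate 3, 4 without TNF- replicate 1, 3 without TNF- replicate 2 and 5 without replicate 1 of both genotypes.

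Surfactant is cleared by alveolar macrophages under control of GM-CSF. Of 10 genes listed for this pathway 6 rose, among them the receptor chains Csf2ra (log2 fold change 2.15) and Csf2rb (2.70). The list also holds Csf2rb2 (3.29), which rose and encodes a related receptor chain for interleukin-3. The scavenger receptor Marco rose too, with 58275, 95434 and 49542 normalized counts in TNF+ lungs, against 260, 338 and 885 in TNF- lungs (7.10, standard error 0.58, edgeR adjusted p = 4.97e-05). General leukocyte markers rose beside them, among them Cd68 (3.33), Itgam (2.64), Cd52 (2.57) and Itgax (2.28), and the part of leukocyte number in the rise of these genes was not tested. The ligand gene Csf2 (0.04, adjusted p = 0.932), the regulator Pparg (0.00, adjusted p = 0.997) and the cholesterol exporter Abcg1 (0.22, adjusted p = 0.162) did not pass the test. Bach2 fell (-0.53, adjusted p = 0.0180), a call lost without TNF+ replicate 1, TNF- replicate 1 or TNF- replicate 2.

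The root mean square difference over the 6 lungs of a gene's centred log2 CPM from the mean of the 10 ranged from 0.0466 for Lpcat1 to 0.286 for Sftpb. Among 11288 other genes whose mean log2 CPM reached 3, those closest to that mean included Polr2m (0.0381), Dis3l (0.0400), Mmgt1 (0.0442) and Gmfb (0.0461).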

How the data were processed

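Bulk RNA was extracted from the lungs of 3 TNF+ and 3 TNF- mice and made into stranded, poly(A)-selected libraries. The authors trimmed the reads with Trimmomatic (version 0.36 in the submitters' processing notes), aligned them with STAR 2.5.2b to the mouse genome (GRCm38.p5 in those notes) and counted them per gene with featureCounts. The strand setting and the annotation are not given in the sources used here. The deposited values are raw read counts per gene symbol in 1 column for each lung, and 0 columns were left unused.

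Genes with low counts were removed with filterByExpr, libraries were scaled by TMM, and TNF+ was compared with TNF- by the quasi-likelihood test of edgeR 4.0.16 (R 4.3.3) over all 6 lungs with no covariate. P-values were adjusted by the Benjamini-Hochberg method over all tested genes and called under 0.05. Normalized counts are counts divided by relative TMM-scaled library sizes. Standard errors are the log2 fold change divided by the root of the F statistic, and SDs are between mice. Levels relative to other genes used log2 CPM with a prior count of 2. Ratios of genes were compared by exact two-sided permutation tests, which cannot go below 0.1 with 3 mice against 3. Exon lengths, coordinates and shared 100-base windows were taken from GENCODE M21, and upstream bases from RefSeq.

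The genes named are the 10 surfactant and type 2 genes, genes of lists of known function, library checks and the 5 genes closest in pattern, of which 1 is not reported here. These genes and lists were chosen with earlier results of these data known, and the promoter motifs were chosen after the sequences were seen. Alternatives were DESeq2 1.42.0, limma-voom (limma 3.58.1), other scalings, no filter, a fold threshold, a replicate block and leaving out each lung. Leaving out replicate 1 of both genotypes, the sum without Fscn1, and running each list under every alternative except the fold threshold, were added after seeing the data. The scripts were tested on simulated data. Counting intervals cover counting error only.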

Additional observations from a re-analysis of the deposited data

How the results depend on the processing

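Sftpb and Abca3 were lower in TNF+ lungs past the adjusted p cutoff in all 14 alternative fits of each gene. The number of lower surfactant and type 2 genes, 4 by edgeR, was 6 by DESeq2, 5 by limma-voom and 5 with total counts only, and it ranged from 2 to 5 with single lungs left out. It was 2 without replicate 1 of both genotypes and 0 when a log2 fold change of at least 1 in size was also asked for, a threshold that left 4320 of 9096 calls over all genes. Fits with lungs left out rest on fewer lungs, and other causes of these moves were not tested. The log2 fold change of Sftpa1 ranged from -0.0223 to 0.212 with single lungs left out and was -0.0915 without replicate 1 of both genotypes, and that of Sftpd ranged from -0.0179 to 0.18 and was -0.0470. The difference between TNF+ and TNF- lungs in the log2 ratio of Abca3 to Sftpb ranged from -0.0637 to 0.0553 with single lungs left out and was 0.0754 without replicate 1 of both genotypes. None of these values passed a test, and the cause of the change of sign was not tested.

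The labels state no pairing of the lungs by replicate number, and the counts showed none. Deviations of same-numbered lungs correlated at -0.15, -0.00429 and -0.24, and each lung correlated best with a lung of another number. With 3 lungs in each group, these correlations cannot exclude a pairing. With a replicate block, 3 of the 10 genes were lower (Sftpb, Abca3 and Etv5, while Lpcat1 had an edgeR adjusted p = 0.0555) and 7686 genes passed over the whole table. For the 10 genes, counting error (at most 2.05%) was below the spread between mice. This was not computed for the genes of the lists, some of which had few counts.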
